A study of Homo sapiens with 8 samples.

Results

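The comparison described here set Ishikawa cells given dexamethasone and estradiol together against Ishikawa cells given the vehicle DMSO alone. Ishikawa is an established line of human endometrial adenocarcinoma. Dexamethasone is a synthetic glucocorticoid, estradiol is the main natural estrogen, and the study asked how these receptors act on each other's genes in endometrial cancer. The combination group received 100 nM dexamethasone with 10 nM estradiol, the single-hormone groups received 100 nM dexamethasone or 10 nM estradiol, and the control group received DMSO. Cells of all groups were kept in phenol red-free medium with charcoal-treated serum, which is depleted of steroids. The sample labels give 8 hr of treatment, whereas the treatment protocol gives 1 hr, and the sources used here do not settle which applies to the RNA. RNA was sequenced from stranded mRNA libraries, 2 in each of the 4 groups, so that 4 of the 8 libraries enter the comparison. They were chosen by their column names in the count table, where the number 1 stands on each of the combination columns. The column that matches a sample's title is called combination replicate 1, and the other the unnumbered combination library. Of 26364 genes in the table, 14201 passed the filter on low counts and were tested. Whether the 2 libraries of a group stem from separate cultures is not stated in the labels, so the error behind each p-value is the variation among these libraries and may be technical.

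The glucocorticoid receptor and estrogen receptor alpha are ligand-activated transcription factors that bind DNA and recruit coactivators, and they can be found at shared regulatory regions. In endometrial epithelium estradiol is known for driving growth and for inducing the progesterone receptor. Glucocorticoids are known for inducing genes that feed back on inflammatory, circadian and metabolic signals.

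The combination libraries held 22487333 and 22305665 counts, and the DMSO libraries held 18768433 and 21016257. Levels below are in CPM, the counts per 1000000 of the TMM-scaled library size. The spread within a group exceeded sampling noise, since chi-square divided by its degrees of freedom was 12.7 for the combination libraries and 17.8 for the DMSO libraries. KRT8, a keratin of simple epithelia, stood at 1671 and 1555 CPM in the combination libraries, against 1237 and 1595 CPM in the DMSO libraries. The 11 markers of endometrial epithelium summed to 4397 and 4143 CPM with the combination, against 3680.5 and 4292 CPM in DMSO. The 11 leukocyte markers used summed to 1.69 and 1.08 CPM with the combination, against 1.31 and 1.70 CPM in DMSO, with 5 at 0 in all 4 libraries. The 10 endothelial markers summed to 65.0 and 56.7 CPM with the combination, against 51.9 and 66.5 CPM in DMSO, most of it EGFL7, with 2 at 0. The 11 fibroblast and stromal markers summed to 152 and 170 CPM with the combination, against 169 and 217 CPM in DMSO, most of it COL1A1 at 123 and 140.0 CPM with the combination, against 142 and 185 CPM in DMSO, with 2 at 0. Their part in the results below was not tested. DMSO replicate 1 and dexamethasone replicate 1 stood above their partner libraries at several genes that were high with estradiol, as the values of PGR, THBS1 and MMP17 below show.

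The combination changed 311 genes, which is 2.19% of those tested, at a threshold of 0.05 on the adjusted p of edgeR's quasi-likelihood test (Benjamini-Hochberg). Of these, 210 were higher (1.48%) and 101 were lower (0.711%) than in DMSO, and 1528 genes had an unadjusted p under 0.05. In bulk RNA, fewer cells of a type and less RNA per cell cannot be told apart. Changes upward were larger in the median than changes downward. The median size of the log2 fold change was 1.25 among the genes that were higher, with a range of 0.42 to 8.64, and 0.71 among those that were lower, with a range of 0.45 to 5.43. The highest fitted values belonged to TUBA3E and IL17REL, which had 0 counts in DMSO and are given as bounds further down. Both bounds lie above the median. Over all tested genes the median log2 fold change was -0.00. More than 2-fold changes were found for 130 genes upward and 23 downward, more than 4-fold for 56 and 3, and more than 8-fold for 24 and 1, IL17REL included among the 24 by its fitted value. Genes that were higher had a median of 27.4 CPM with the combination and 10.3 CPM in DMSO, while genes that were lower had a median of 32.0 CPM with the combination and 50.8 CPM in DMSO. The median DMSO level of all tested genes was 25.7 CPM. The libraries of both groups did not overlap at any of the 311 genes, nor at 39.1% of all tested genes. Protein-coding genes made up 201 of those higher and 99 of those lower, 2.30% of the 13040 tested, and long noncoding RNAs 4 and 2, 0.886% of the 677 tested.

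**Figure D1:**
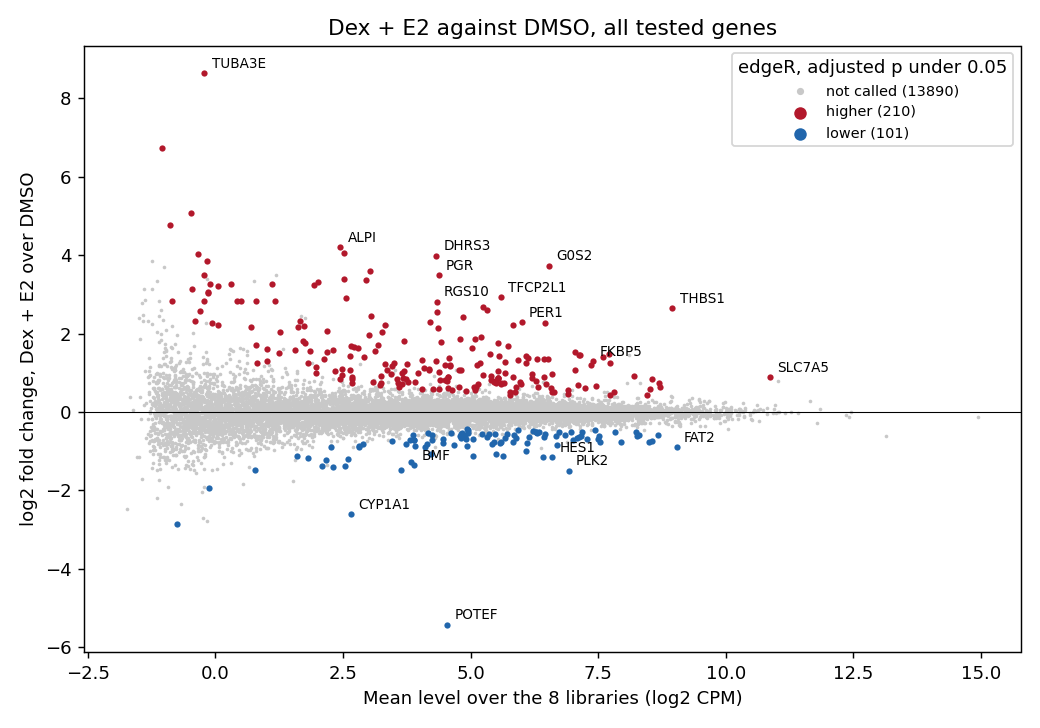
Log2 fold change of the combination over DMSO for each of the 14201 tested genes against its mean level over the 8 libraries in log2 CPM. Red points are the 210 genes higher and blue points the 101 genes lower at an adjusted p under 0.05, and grey points are not called. The blue points lie closer to 0 in the median (0.71 against 1.25 for the red points), with overlapping ranges and POTEF as the farthest below.

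The count rested partly on single libraries. It was 157 without combination replicate 1, 194 without the unnumbered combination library, 225 and 248 without DMSO replicate 2 or 1, 254 and 258 without estradiol replicate 2 or 1, and 322 and 325 without dexamethasone replicate 2 or 1. Of the 311 genes, 144 stayed called whichever of the 8 libraries was left out, 123 of them higher and 21 lower. Genes below with no remark on this are among those 144.

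Among the receptors themselves, the progesterone receptor gene rose while the genes of both receptors addressed by the hormones were not called. PGR, which encodes the progesterone receptor, stood at 36.5 and 37.3 CPM with the combination, 8.91 and 2.47 CPM with dexamethasone, 41.0 and 31.8 CPM with estradiol and 4.09 and 2.53 CPM in DMSO. Both combination libraries lay above every DMSO and dexamethasone library and within the range of the estradiol libraries. The log2 fold change against DMSO was 3.48 ± 0.40 (adjusted p = 0.000898). ESR1, the gene of estrogen receptor alpha, stood at 144 and 154 CPM with the combination, against 181 and 157 CPM in DMSO (log2 fold change -0.18 ± 0.10, adjusted p = 0.618). NR3C1, the gene of the glucocorticoid receptor, stood at 62.9 and 64.9 CPM with the combination, against 63.4 and 66.4 CPM in DMSO (adjusted p = 0.974). GPER1, a membrane receptor gene for estrogen, rose to 7.85 and 8.08 CPM with the combination, against 3.52 and 3.94 CPM in DMSO. Its call (adjusted p = 0.0116) was lost without either combination library or DMSO replicate 1 (adjusted p up to 0.0714). Of 18 coregulators and chaperones of these receptors 1 was called (5.56%, against 2.19% of all tested genes). NRIP1, a corepressor that estrogen induces, stood at 105 and 125 CPM with the combination, against 48.1 and 42.0 CPM in DMSO (log2 fold change 1.35 ± 0.19, adjusted p = 0.0024).

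On a list of known glucocorticoid targets, 13 of 45 tested genes rose and 4 fell. The median log2 fold change over the list was 0.19, and 37.8% were called, against 2.19% of all tested genes. This and the other lists were drawn up with earlier results known, so their called shares are descriptive and no test. PER1, a repressor of the circadian clock, had the smallest p of all genes that rose. It stood at 90.6 and 95.7 CPM with the combination, 129 and 125 CPM with dexamethasone, 18.4 and 15.9 CPM with estradiol and 18.3 and 19.7 CPM in DMSO. The libraries thus fell into a high pair of groups and a low pair, with the combination below dexamethasone alone. Against DMSO the log2 fold change was 2.29 ± 0.11 (adjusted p = 2.29e-06). TSC22D3, an anti-inflammatory leucine zipper protein, stood at 70.0 and 63.5 CPM with the combination, 119 and 149.6 CPM with dexamethasone, 10.7 and 11.9 CPM with estradiol and 13.02 and 15.5 CPM in DMSO (log2 fold change against DMSO 2.22 ± 0.14, adjusted p = 2.58e-05). FKBP5, a co-chaperone that restrains the receptor, stood at 209 and 225 CPM with the combination, against 92.1 and 84.8 CPM in DMSO (1.29 ± 0.11, adjusted p = 0.000118). SCNN1A, a subunit of the sodium channel of absorbing epithelia, stood at 231 and 233 CPM with the combination, against 89.0 and 87.0 CPM in DMSO (1.40 ± 0.09, adjusted p = 2.58e-05). In none of these did a combination library overlap with a DMSO library, as held for all 311 called genes and for 39.1% of all tested genes. The transcription factor genes KLF9 (1.66 ± 0.19) and BCL6 (1.21 ± 0.16) and NFKBIA, the inhibitor of NF-kB (0.87 ± 0.10), rose as well. CEBPB, CEBPD, GPER1, HSD11B2, TFCP2L1 and TIPARP complete the 13 and are described with other groups. A place on the list does not assign a gene to 1 hormone. TIPARP is on the estrogen list too. HSD11B2 was called with estradiol alone (log2 fold change 1.66, adjusted p = 0.00967) and not with dexamethasone alone (0.90, adjusted p = 0.271).

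The 4 listed targets that fell were PLK2, CRISPLD2, AMIGO2 and DDIT4. PLK2, a stress-responsive polo-like kinase, stood at 61.6 and 65.3 CPM with the combination, 135 and 170.4 CPM with dexamethasone, 83.4 and 95.3 CPM with estradiol and 167 and 192 CPM in DMSO. The combination libraries were below all of the other 6 libraries. The difference from dexamethasone passed (-1.27, adjusted p = 0.00157), and that from estradiol did not. PLK2 fell by 1.502 ± 0.13 on the log2 scale against DMSO (adjusted p = 0.00017). CRISPLD2, a secreted protein gene, fell by 1.12 ± 0.11 (adjusted p = 0.00035) to 31.6 and 32.8 CPM with the combination, against 68.0 and 72.3 CPM in DMSO. Its level was 51.4 and 60.4 CPM with dexamethasone and 41.1 and 38.5 CPM with estradiol. AMIGO2, a cell adhesion gene, fell by 1.07 ± 0.13 to 9.90 and 11.8 CPM with the combination, against 21.5 and 24.2 CPM in DMSO. With dexamethasone AMIGO2 was not lower than in DMSO, at 24.1 and 26.3 CPM, and with estradiol it stood at 16.4 and 14.7 CPM. DDIT4, a stress gene that restrains mTORC1, stood at 275 and 255 CPM with the combination, 529.7 and 538 CPM with dexamethasone, 189.7 and 200.03 CPM with estradiol and 443 and 462 CPM in DMSO (adjusted p = 0.000937 against DMSO). Both dexamethasone libraries lay above the DMSO libraries, and both estradiol libraries lay below the combination libraries.

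Of 37 tested genes on a list of known estrogen targets, 14 rose (37.8%, against 1.48% of all tested genes) and 0 fell. The median log2 fold change over the list was 0.52. Beside PGR and NRIP1, the list held GREB1, a growth regulator and receptor cofactor, at 30.3 and 34.2 CPM with the combination, against 8.03 and 6.71 CPM in DMSO (log2 fold change 2.13 ± 0.31, adjusted p = 0.00351). CA12, a membrane carbonic anhydrase, stood at 25.2 and 25.9 CPM with the combination, 12.1 and 6.01 CPM with dexamethasone, 31.9 and 33.8 CPM with estradiol and 5.56 and 4.91 CPM in DMSO. Its combination libraries lay below both estradiol libraries and above all others (2.28 ± 0.25 against DMSO, adjusted p = 0.000702). KCNF1, a modulatory potassium channel subunit, rose by 2.04 ± 0.20, the lipid transporter gene ABCA3 by 0.92 ± 0.10, RAPGEFL1 by 1.19 ± 0.18 and the ubiquitin ligase gene SIAH2 by 0.90 ± 0.11 on the log2 scale. IGFBP4, which binds insulin-like growth factors, was called (2.83 ± 0.41) at only 1.73 and 2.29 CPM with the combination, against 0.157 and 0.389 CPM in DMSO. EGR3, RARA, SLC7A5, TIPARP and TSKU complete the 14 and are described with other groups. The calls of EGR3, RARA and SLC7A5 depended on single libraries, and TIPARP is on the glucocorticoid list too. TSKU was called with dexamethasone alone (1.10, adjusted p = 0.000769) as well as with estradiol alone (0.99, adjusted p = 0.00165). PDZK1, another listed target, stood at 1.86 and 1.53 CPM with the combination, against 0.735 and 0.583 CPM in DMSO, and was not called (adjusted p = 0.0725).

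Large increases outside these lists were seen at DHRS3, RGS10, PIM1, THBS1 and MMP17, and all 5 stood near their level with estradiol alone. DHRS3, a reductase of retinal, stood at 37.9 and 32.8 CPM with the combination, 8.72 and 1.85 CPM with dexamethasone, 31.8 and 40.4 CPM with estradiol and 3.10 and 1.41 CPM in DMSO (3.98 ± 0.49 against DMSO, adjusted p = 0.00124). RGS10, a regulator of G protein signalling, stood at 40.2 and 31.4 CPM with the combination, 7.75 and 6.79 CPM with dexamethasone, 30.3 and 33.2 CPM with estradiol and 5.35 and 4.86 CPM in DMSO (2.81 ± 0.16, adjusted p = 1.07e-05). The serine/threonine kinase gene PIM1 stood at 66.7 and 67.7 CPM with the combination, 18.8 and 10.3 CPM with dexamethasone, 64.2 and 70.4 CPM with estradiol and 10.9 and 11.2 CPM in DMSO (2.61 ± 0.21, adjusted p = 0.00011). At RGS10 and PIM1 the combination and estradiol libraries overlapped, and both lay above all DMSO libraries. THBS1, a matrix glycoprotein, stood at 766 and 817 CPM with the combination, 356 and 112 CPM with dexamethasone, 845 and 819 CPM with estradiol and 162 and 89.9 CPM in DMSO. Its lowest combination library was above the highest DMSO library, although DMSO replicate 1 and dexamethasone replicate 1 were each above their partner. The log2 fold change was 2.65 ± 0.43 (adjusted p = 0.00623). MMP17, a membrane-anchored metalloproteinase, showed the same split of libraries, at 59.6 and 56.3 CPM with the combination, 44.4 and 12.1 CPM with dexamethasone, 48.5 and 63.6 CPM with estradiol and 11.02 and 7.05 CPM in DMSO (2.68 ± 0.45, adjusted p = 0.0088). IQSEC3 (3.39 ± 0.46), MLPH, a melanophilin (3.37 ± 0.44), RBM24, an RNA-binding protein of muscle (3.26 ± 0.41), and the osmolyte transporter SLC6A12 (2.54 ± 0.29) rose too. ANPEP, aminopeptidase N, stood at 7.81 and 7.54 CPM with the combination, against 1.26 and 0.292 CPM in DMSO (3.32 ± 0.57, adjusted p = 0.00998). CACNA1I, a T-type calcium channel gene (2.46 ± 0.45), lost its call without estradiol replicate 2 or DMSO replicate 2 (adjusted p up to 0.0682), and the noncoding RNA LINC00565 (2.82 ± 0.48) lost it without DMSO replicate 2 (0.0572).

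**Figure D2:**
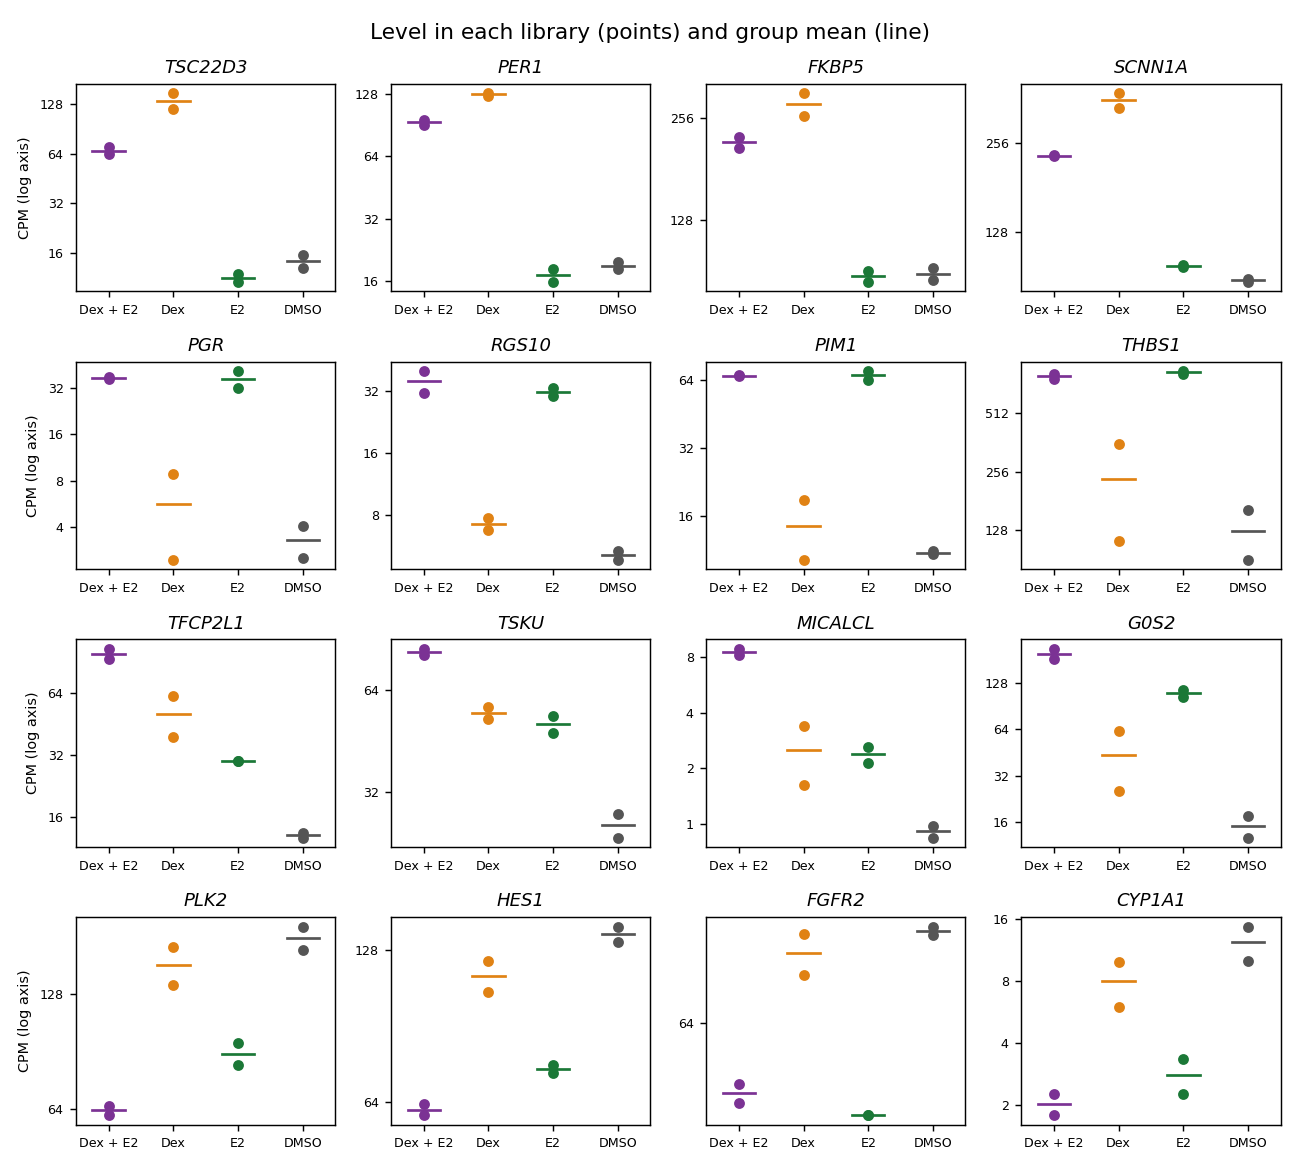
CPM of 16 genes in each library on a log axis, one point per library and a line at the group mean, with dexamethasone plus estradiol at the left and DMSO at the right of each panel. TSC22D3, PER1, FKBP5 and SCNN1A sit highest with dexamethasone alone, TFCP2L1, TSKU, MICALCL and G0S2 sit highest with both hormones, and PLK2 and HES1 sit lowest with both.

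Whether the combination differed from a single hormone was tested in the same fit. Against dexamethasone 379 genes were called (2.67%), and against estradiol 39 (0.275%). The dexamethasone, estradiol and DMSO contrasts share libraries, so they are set side by side gene by gene and no overlap between them is given. Among the genes called against DMSO without overlap and with a mean level above 1 log2 CPM, 3 were also higher than with each hormone alone, namely TFCP2L1, TSKU and MICALCL, and 0 were lower than with each. TFCP2L1, a transcription factor gene of epithelia, stood at 93.8 and 105 CPM with the combination, 61.8 and 39.0 CPM with dexamethasone, 30.0 and 29.7 CPM with estradiol and 13.3 and 12.7 CPM in DMSO. Its log2 fold change was 2.93 ± 0.19 over DMSO (adjusted p = 2.58e-05), 0.97 ± 0.17 over dexamethasone (adjusted p = 0.0142) and 1.73 ± 0.18 over estradiol (adjusted p = 0.00126). TSKU, a secreted leucine-rich repeat protein, stood at 80.9 and 84.4 CPM with the combination, 56.9 and 52.4 CPM with dexamethasone, 47.6 and 53.7 CPM with estradiol and 23.5 and 27.5 CPM in DMSO. It was 1.69 ± 0.11 over DMSO (adjusted p = 2.71e-05), 0.60 ± 0.11 over dexamethasone (adjusted p = 0.0184) and 0.70 ± 0.11 over estradiol (adjusted p = 0.024). MICALCL stood at 8.87 and 8.26 CPM with the combination, 3.37 and 1.63 CPM with dexamethasone, 2.14 and 2.61 CPM with estradiol and 0.840 and 0.972 CPM in DMSO. It was 3.23 ± 0.31 over DMSO (adjusted p = 0.00037), 1.76 ± 0.27 over dexamethasone (adjusted p = 0.00755) and 1.84 ± 0.27 over estradiol (adjusted p = 0.0171). At all 3 genes both combination libraries lay above the other 6. This order largely follows from choosing genes called higher than each other group, so it adds no support. The differences from a single hormone were less firm than those from DMSO. TFCP2L1 lost its call over dexamethasone without the unnumbered combination library (adjusted p = 0.0979) and over estradiol without either estradiol library (up to 0.0615). TSKU lost the call over dexamethasone without either combination library or dexamethasone replicate 2 (up to 0.179), and TSKU and MICALCL lost that over estradiol without any combination or estradiol library (up to 0.291 and 0.291).

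BAG3, a co-chaperone of HSP70, was highest with both hormones and passed the test against DMSO and dexamethasone but not against estradiol. It stood at 224 and 215 CPM with the combination, 113 and 101 CPM with dexamethasone, 154 and 159 CPM with estradiol and 84.7 and 76.8 CPM in DMSO (1.44 ± 0.10 over DMSO, adjusted p = 2.71e-05). Over dexamethasone it was 1.04 ± 0.10 (adjusted p = 0.00105) and over estradiol 0.49 ± 0.10 (adjusted p = 0.0938). G0S2, an inhibitor of triglyceride lipase, stood at 215 and 183 CPM with the combination, 62.6 and 25.2 CPM with dexamethasone, 104 and 117 CPM with estradiol and 17.5 and 12.6 CPM in DMSO. Every combination library exceeded every other library, yet the difference from estradiol did not pass (0.86 ± 0.30, adjusted p = 0.602). NGFR, the low-affinity neurotrophin receptor, stood at 5.32 and 5.07 CPM with the combination, 3.08 and 2.81 CPM with dexamethasone, 1.07 and 1.46 CPM with estradiol and 1.57 and 1.90 CPM in DMSO (1.58 ± 0.22 over DMSO, adjusted p = 0.00261). It was higher than with estradiol (2.02 ± 0.23, adjusted p = 0.00304), a call lost without estradiol replicate 1 (adjusted p = 0.0754), and was not called over dexamethasone (0.82 ± 0.21, adjusted p = 0.0704).

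Several genes that dexamethasone alone raised stood lower with both hormones than with dexamethasone, while remaining above DMSO. PPP1R1B, an inhibitor of protein phosphatase 1, stood at 29.4 and 25.3 CPM with the combination, 68.1 and 63.5 CPM with dexamethasone, 9.01 and 10.3 CPM with estradiol and 8.13 and 6.81 CPM in DMSO. The combination libraries lay between the dexamethasone and the estradiol libraries, 1.87 ± 0.14 over DMSO (adjusted p = 4.98e-05), 1.498 ± 0.13 over estradiol (adjusted p = 0.00042) and -1.27 ± 0.12 over dexamethasone on the log2 scale (adjusted p = 0.00107). STAC2, an adaptor of calcium channels, showed the same order, at 5.15 and 5.21 CPM with the combination, 18.5 and 20.4 CPM with dexamethasone, 1.18 and 1.41 CPM with estradiol and 1.94 and 1.41 CPM in DMSO (1.63 ± 0.20 over DMSO, adjusted p = 0.00124, and -1.91 ± 0.16 over dexamethasone, adjusted p = 0.00105). Over dexamethasone, TSC22D3 was -1.01 ± 0.13 (adjusted p = 0.00338) and EHF, an epithelial ETS factor, -0.85 ± 0.14 (adjusted p = 0.00921), on the log2 scale. SCNN1A was -0.62 ± 0.09 (adjusted p = 0.00568) and PER1 -0.45 ± 0.10 (adjusted p = 0.0388). The difference from dexamethasone was lost for EHF without combination replicate 1 or dexamethasone replicate 2 (adjusted p up to 0.12), for SCNN1A without either combination library or dexamethasone replicate 2 (up to 0.0783), and for PER1 without any combination or dexamethasone library (up to 0.316). FKBP5 (-0.37 ± 0.10, adjusted p = 0.0972), BCL6 (-0.57 ± 0.15, adjusted p = 0.0748) and GMPR, a purine reductase (-0.62 ± 0.18, adjusted p = 0.104), had negative differences from dexamethasone that did not pass.

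**Figure D3:**
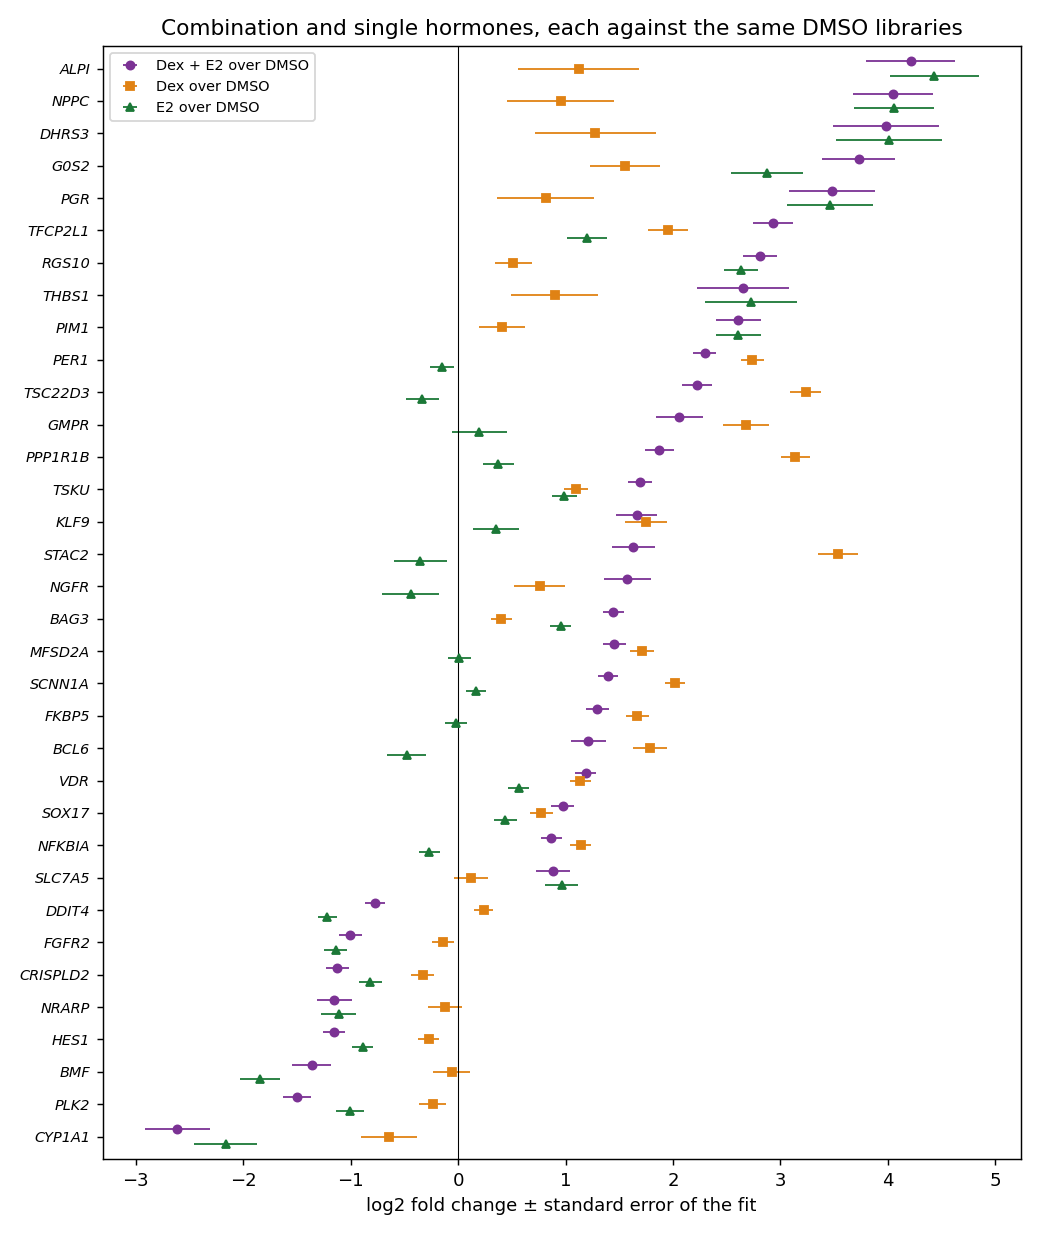
Log2 fold change over DMSO with the standard error of the fit for genes named in the text, with the combination as circles, dexamethasone as squares and estradiol as triangles, ordered by the combination value. The circle lies beyond both single hormones for TFCP2L1, TSKU, BAG3 and NGFR and between them for PPP1R1B, STAC2 and TSC22D3, and all 3 contrasts use the same DMSO libraries.

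The 2 lists of transport genes had 20.5% of 39 and 20% of 40 tested members called, against 2.19% of all genes. Both were drawn up with earlier results of these data known, so the shares are no test of enrichment. Of 39 tested genes for ion and water transport, 7 rose and 1 fell (median log2 fold change 0.10). Beside SCNN1A, CA12 and STAC2, those that rose were CA2, a cytosolic carbonic anhydrase (1.04 ± 0.15), and SLC9A2, a sodium/proton exchanger (0.88 ± 0.11). SLC9A3R1, a PDZ scaffold protein (0.91 ± 0.09), and ANO1, a calcium-activated chloride channel (2.26 ± 0.35), rose too. SLC9A3R1 stood at 393 and 374 CPM with the combination, against 193 and 215 CPM in DMSO (adjusted p = 0.00053). The member that fell was KCNE3, a potassium channel subunit (-0.62 ± 0.14), whose call was lost without any combination, estradiol or DMSO library (adjusted p up to 0.298). Of 40 solute carriers of metabolites, 8 rose and 0 fell (median 0.20). SLC6A6, the taurine transporter, stood at 112 and 121 CPM with the combination, 56.1 and 41.2 CPM with dexamethasone, 131 and 136 CPM with estradiol and 51.9 and 40.1 CPM in DMSO (1.34 ± 0.15, adjusted p = 0.000889). SLC30A1, which exports zinc, rose by 1.25 ± 0.16, SLC16A3, a lactate exporter, by 1.08 ± 0.12, and SLC22A5, the carnitine transporter, by 0.78 ± 0.09. SLC7A5 and SLC3A2 encode the light and heavy chain of a transporter of large neutral amino acids. SLC7A5 was the most abundant gene that rose, at 2339 and 2359 CPM with the combination, against 1321 and 1230.1 CPM in DMSO (0.88 ± 0.16, adjusted p = 0.0121), and SLC3A2 stood at 524 and 481 CPM with the combination, against 335 and 316 CPM in DMSO (adjusted p = 0.0432). SLC7A5 lost its call without either combination library or DMSO replicate 2 (adjusted p up to 0.0643), and SLC3A2 without any combination, estradiol or DMSO library (up to 0.307). SLC39A14 (0.44) lost it without any combination or DMSO library (up to 0.205), and SLC43A2 (0.45) without these or estradiol replicate 2 (up to 0.29).

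**Figure D4:**
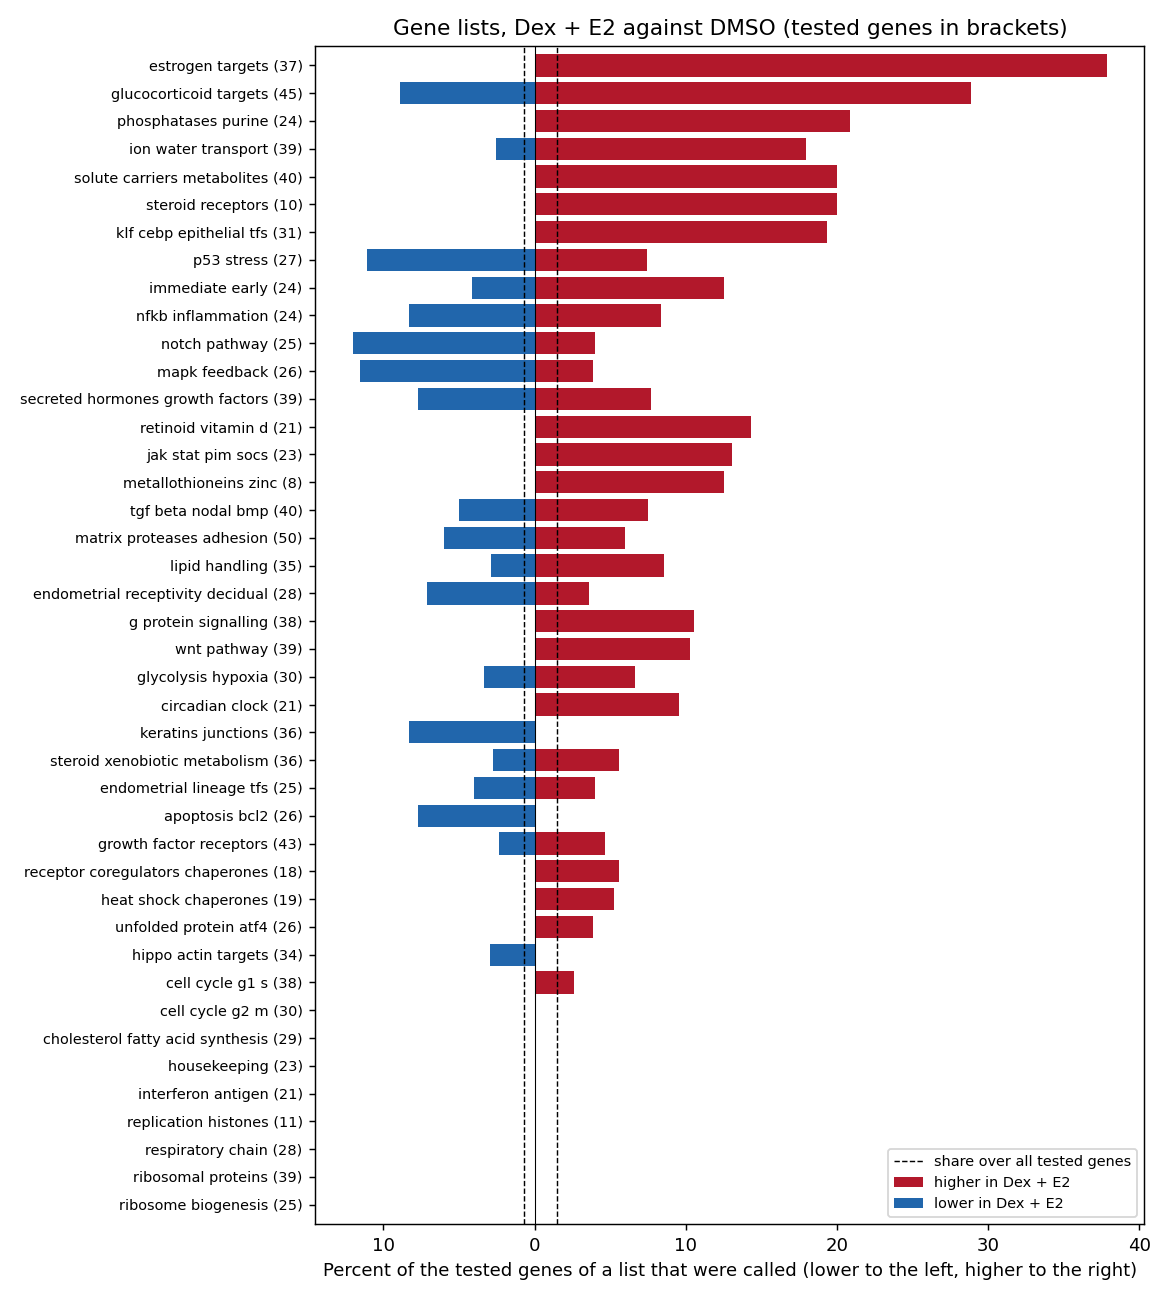
Share of the tested genes of 42 lists called higher (red, to the right) or lower (blue, to the left) with the combination, with the number of tested genes in brackets and dashed lines at 1.48% and 0.711%, the shares over all tested genes. Estrogen and glucocorticoid targets have the longest bars, and 8 lists at the bottom have 0 members called. The lists were drawn up with earlier results of these data known.

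Transcription factor genes of the KLF, CEBP and epithelial families rose in 6 of 31 cases and fell in 0 (median log2 fold change 0.08). These are 19.4% of the list, against 1.48% of all tested genes called higher. Beside TFCP2L1, KLF9 and EHF, CEBPB, a factor of acute-phase and decidual gene programmes, stood at 56.7 and 54.7 CPM with the combination, against 32.3 and 34.9 CPM in DMSO (0.73 ± 0.10, adjusted p = 0.00295). CEBPD rose by 0.82 ± 0.12 and lost its call without combination replicate 1 (adjusted p = 0.0627). KLF13 (0.50 ± 0.10) lost it without estradiol replicate 2 or any combination or DMSO library (up to 0.17). Of 25 lineage factors of the endometrium, SOX17, a factor of its glands, rose to 126 and 126 CPM with the combination, against 59.6 and 68.9 CPM in DMSO (0.97 ± 0.11, adjusted p = 0.000811). Its level was 109 and 111 CPM with dexamethasone and 80.2 and 93.9 CPM with estradiol, so that the combination libraries were the highest of the 8. Neither difference from a single hormone passed. SOX4 of the same list fell (-0.51 ± 0.11) and lost its call without DMSO replicate 2 or any combination or estradiol library (up to 0.309). In the retinoid and vitamin D list 3 of 21 rose (14.3%), DHRS3, VDR and RARA. VDR, the vitamin D receptor gene, stood at 44.4 and 46.8 CPM with the combination, 43.8 and 44.4 CPM with dexamethasone, 29.1 and 30.2 CPM with estradiol and 19.7 and 20.4 CPM in DMSO (1.19 ± 0.10, adjusted p = 0.000112). RARA, a retinoic acid receptor gene (0.52 ± 0.12, adjusted p = 0.0479), lost its call without any combination, dexamethasone or DMSO library (up to 0.371).

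Components of several signalling pathways moved in both directions. In the Notch list 3 of 25 fell and 1 rose (16% called, against 2.19% of all genes, median -0.03). HES1, a repressor that Notch induces, stood at 63.3 and 60.1 CPM with the combination, 106 and 122 CPM with dexamethasone, 73.0 and 75.6 CPM with estradiol and 133 and 142 CPM in DMSO. Both combination libraries were below all others, and it fell by 1.16 ± 0.10 against DMSO (adjusted p = 0.000185). The difference of HES1 from dexamethasone passed (-0.88, adjusted p = 0.00269), and that from estradiol did not. NRARP, a feedback inhibitor of Notch, fell by 1.15 ± 0.16 (adjusted p = 0.00287) to 52.0 and 56.6 CPM with the combination, against 112 and 129 CPM in DMSO. The receptor gene NOTCH3 fell by 0.51 and lost its call without either combination library or DMSO replicate 2 (adjusted p up to 0.312). LFNG, a glycosyltransferase of Notch receptors, rose by 1.26 ± 0.17 (adjusted p = 0.00169) to 66.3 and 58.8 CPM with the combination, against 24.8 and 27.3 CPM in DMSO. In the list of MAPK feedback genes 3 of 26 fell, SPRY1, SPRY2 and ETV5, and RASSF4 rose (15.4% called, median -0.03). SPRY1, an inhibitor of receptor tyrosine kinase signalling, stood at 33.5 and 33.8 CPM with the combination, 53.8 and 52.4 CPM with dexamethasone, 43.2 and 47.6 CPM with estradiol and 55.2 and 61.3 CPM in DMSO (adjusted p = 0.00143 against DMSO). SPRY2 lost its call without either combination library or DMSO replicate 2 (up to 0.115), and ETV5 without any combination or DMSO library (up to 0.298). RASSF4 rose by 2.17 ± 0.25 to 4.61 and 3.59 CPM with the combination, against 0.997 and 0.827 CPM in DMSO.

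FGFR2, a receptor for fibroblast growth factors, was the only gene of 43 growth factor receptors that fell, and KDR and NGFR rose (median 0.07). With these 3 genes 6.98% of the list was called, against 2.19% of all genes. FGFR2 stood at 45.5 and 49.3 CPM with the combination, 78.8 and 93.8 CPM with dexamethasone, 43.1 and 43.2 CPM with estradiol and 96.7 and 93.4 CPM in DMSO (adjusted p = 0.000613 against DMSO). The combination and estradiol libraries together lay below the dexamethasone and DMSO libraries. KDR, a VEGF receptor and endothelial marker, stood at only 1.11 and 1.08 CPM with the combination, against 0.262 and 0.0972 CPM in DMSO, and lost its call (adjusted p = 0.0119) without either combination library or DMSO replicate 2 (up to 0.129). Of 39 secreted factors, VEGFA (0.80 ± 0.10), NPPC, the C-type natriuretic peptide, and IGFBP4 rose, and IGFBP3, SEMA3C and SLIT2 fell (median 0.02). The called share of this list was 15.4%. SLIT2, a guidance cue, fell by 0.70 ± 0.10 to 136 and 151 CPM with the combination, against 234 and 231 CPM in DMSO (adjusted p = 0.00261), and lost its call without combination replicate 1 (0.0571). IGFBP3 stood at 249 and 254 CPM with the combination, against 396 and 449.9 CPM in DMSO (adjusted p = 0.026). IGFBP3 lost its call without DMSO replicate 2 or any combination or estradiol library (up to 0.191), and SEMA3C (-0.62 ± 0.13) without any combination, estradiol or DMSO library (up to 0.342).

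In the TGF-beta, Nodal and BMP list 3 of 40 rose and 2 fell (12.5% called, against 2.19% of all genes, median -0.00). FSTL3, a binding protein of activins, stood at 30.0 and 29.7 CPM with the combination, 29.6 and 30.4 CPM with dexamethasone, 20.3 and 26.1 CPM with estradiol and 12.5 and 13.8 CPM in DMSO (1.18 ± 0.13, adjusted p = 0.000811). TGFBR3, betaglycan (0.80 ± 0.13), lost its call without the unnumbered combination library (adjusted p = 0.0872), and INHBB, an activin subunit at 1.64 and 1.30 CPM with the combination, against 0.315 and 0.292 CPM in DMSO, lost it without combination replicate 1 or either DMSO library (up to 0.13). ID1 and SMAD6, both induced by BMP, stood at -0.61 and -0.83 on the log2 scale, and both lost their calls without either combination library or DMSO replicate 2 (up to 0.181 and 0.249). In the Wnt list 4 of 39 rose and 0 fell (10.3% called, median 0.08). NKD2, an antagonist of Wnt signalling, stood at 28.9 and 25.9 CPM with the combination, 28.1 and 26.8 CPM with dexamethasone, 13.01 and 14.97 CPM with estradiol and 11.02 and 11.3 CPM in DMSO (1.29 ± 0.12, adjusted p = 0.000297). APCDD1 lost its call without either combination library or DMSO replicate 2 (up to 0.0872), and FZD5 and TCF7 without DMSO replicate 2 or any combination or estradiol library (up to 0.163 and 0.24). In the list of JAK, STAT, PIM and SOCS genes 3 of 23 rose, PIM1, BCL6 and PIM3 (0.90 ± 0.12), and 0 fell. The called share was 13% and the median 0.02. Of 38 G protein signalling genes 4 rose (10.5%, median 0.07), of which RGS10 alone kept its call without each library. ADRA2C and CXCR4 lost theirs without any combination, estradiol or DMSO library (up to 0.372 and 0.273), and LPAR3, a receptor of lysophosphatidic acid, without any combination or DMSO library (up to 0.209).

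Among metabolic and detoxifying genes, CYP1A1, which oxidises xenobiotics and estrogens, had the largest decrease after POTEF among genes with a mean level above 1 log2 CPM. It stood at 1.77 and 2.24 CPM with the combination, 5.97 and 9.93 CPM with dexamethasone, 3.32 and 2.25 CPM with estradiol and 9.97 and 14.7 CPM in DMSO, so that the combination and estradiol libraries together lay below the dexamethasone and DMSO libraries. It fell by 2.62 ± 0.30 against DMSO (adjusted p = 0.000922). TIPARP, a repressor of the receptor that induces CYP1A1, rose to 38.5 and 38.1 CPM with the combination, against 19.1 and 17.7 CPM in DMSO (1.06 ± 0.11, adjusted p = 0.000536). HSD11B2, which inactivates cortisol, stood at 12.2 and 12.5 CPM with the combination, 7.75 and 3.98 CPM with dexamethasone, 9.29 and 10.7 CPM with estradiol and 3.57 and 2.77 CPM in DMSO (1.97 ± 0.26, adjusted p = 0.00201). These were 3 of 36 listed genes of steroid and xenobiotic metabolism (8.33%, against 2.19% of all genes, median 0.06). In the lipid list 3 of 35 rose and 1 fell (11.4% called, median -0.04). MFSD2A, a carrier of lysophospholipids, stood at 192 and 187 CPM with the combination, 209 and 245 CPM with dexamethasone, 65.4 and 74.1 CPM with estradiol and 67.2 and 71.4 CPM in DMSO (1.45 ± 0.11, adjusted p = 5.47e-05). ABCA1, a cholesterol exporter (-0.81 ± 0.17), lost its call without any combination or DMSO library (up to 0.335). Of 30 glycolysis and hypoxia genes VEGFA and BNIP3 (0.90 ± 0.11), a mitophagy receptor, rose and DDIT4 fell (10% called, median 0.07). Of 21 clock genes 9.52% were called. The other called clock gene of 21, beside PER1, was BHLHE41 at 2.44 and 2.51 CPM with the combination, against 1.10 and 0.438 CPM in DMSO, and its call was lost without DMSO replicate 2 or any combination or estradiol library (up to 0.188).

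In the lists of cell death and stress 7.69% and 18.5% of the tested genes were called, against 2.19% of all genes. As the lists were drawn up with earlier results known, these shares are no test of enrichment. Of 26 genes of the BCL2 family and apoptosis 2 fell and 0 rose (median 0.03). BMF, a pro-apoptotic BH3-only protein, stood at 9.23 and 8.39 CPM with the combination, 18.3 and 25.3 CPM with dexamethasone, 6.98 and 5.70 CPM with estradiol and 20.6 and 24.7 CPM in DMSO. Its combination libraries lay above the estradiol libraries and below the DMSO libraries (it fell by 1.36 ± 0.18, adjusted p = 0.00163). FAS, the death receptor (-0.45 ± 0.10, adjusted p = 0.0487), was not called whichever of the 8 libraries was left out (up to 0.423). Among 27 p53 and stress genes CDKN1A and GADD45G rose, and PLK2, FAS and CCNG2 fell (median -0.05). CDKN1A, the cyclin-dependent kinase inhibitor p21, stood at 64.8 and 61.9 CPM with the combination, 50.3 and 50.8 CPM with dexamethasone, 36.7 and 36.8 CPM with estradiol and 33.1 and 36.8 CPM in DMSO (0.86 ± 0.10, adjusted p = 0.000827). It was the only called gene among 38 of the G1 and S phase list (2.63%, near the 2.19% of all genes). CCNG2 (-0.51 ± 0.11) lost its call without any combination, estradiol or DMSO library (up to 0.354). In the NF-kB list NFKBIA and ZFP36 (1.33 ± 0.12) rose, and TNFAIP2 and ZFP36L1 fell, of 24 tested (16.7% called, median 0.04). ZFP36 and ZFP36L1 encode related proteins that bind AU-rich RNA and promote its decay, and they moved in opposite directions. ZFP36 stood at 25.4 and 24.7 CPM with the combination, against 10.2 and 9.72 CPM in DMSO, and ZFP36L1 stood at 125 and 141 CPM with the combination, against 222 and 234 CPM in DMSO (adjusted p = 0.00143). TNFAIP2 (-0.84 ± 0.13) lost its call without combination replicate 1 (adjusted p = 0.0643).

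Several genes of adhesion and junctions fell. Of 36 keratins and junction genes 0 rose and 3 fell (median -0.09). Of 50 genes of matrix, proteases and adhesion 3 rose and 3 fell (median -0.08). The called shares of these lists were 8.33% and 12%, against 2.19% of all genes. ITGB4, an integrin subunit of hemidesmosomes, stood at 179.5 and 180.2 CPM with the combination, 285 and 337 CPM with dexamethasone, 186 and 207 CPM with estradiol and 276 and 337 CPM in DMSO. ITGB4 in the combination libraries lay below all of the other 6, though its difference from estradiol did not pass (-0.13 ± 0.12, adjusted p = 0.992). It fell by 0.77 ± 0.12 (adjusted p = 0.00547), a call lost without combination replicate 1 (0.0574). FAT2, an atypical cadherin, was the most abundant gene that fell, at 347 and 386 CPM with the combination, against 598 and 765 CPM in DMSO (it fell by 0.90 ± 0.13, adjusted p = 0.00352), and lost its call without combination replicate 1 (0.0544). JUP, plakoglobin (-0.59 ± 0.13), CLDN9 (-1.39 ± 0.28), ITGB3 (-0.58 ± 0.12) and ITGB6 (-0.57 ± 0.12) lost their calls without DMSO replicate 2 or any combination or estradiol library (adjusted p up to 0.263, 0.169, 0.299 and 0.32). CGN, cingulin (-0.55 ± 0.11), lost it without either combination library, estradiol replicate 1 or DMSO replicate 1 (up to 0.333). In the other direction, the proteoglycan gene VCAN rose to 9.10 and 8.93 CPM with the combination, against 3.20 and 2.43 CPM in DMSO (1.68 ± 0.19, adjusted p = 0.000811), and PLAT, tissue plasminogen activator, to 29.9 and 28.3 CPM with the combination, against 10.50 and 6.37 CPM in DMSO (1.79 ± 0.28, adjusted p = 0.00547). In the list of Hippo and actin genes 28 of 34 had a negative log2 fold change (median -0.17) and 10 an unadjusted p under 0.05, against 7143 negative and 1528 with such a p of all 14201 genes. With 1 member called, 2.94%, the list was near the 2.19% of all genes. The only member called was AJUBA, a LIM protein (-0.47 ± 0.09), which lost its call without any combination or DMSO library (up to 0.257).

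Other decreases were spread over transcription factors and secreted or surface proteins. POTEF, whose protein combines POTE ankyrin repeats with an actin domain, stood at 1.95 and 2.11 CPM with the combination, 1.40 and 0.786 CPM with dexamethasone, 1.75 and 1.94 CPM with estradiol and 75.9 and 99.8 CPM in DMSO. It was high in DMSO and at most 2.11 CPM in the other 6 libraries. It fell by 5.43 ± 0.20 (adjusted p = 3.98e-07), the largest decrease of the genes called. Its counts are uncertain, because its transcript shares 3536 bases at 99.3% identity with POTEE and 1354 bases at 92.0% with ACTB. The zinc finger genes ZNF608 and ZNF423 fell by 1.49 and 1.38, the homeobox genes DMBX1 and MEOX1 by 1.12 and 0.84, and ADAMTS5, an aggrecanase, by 1.28 on the log2 scale. MEOX1 stood at 76.7 and 75.6 CPM with the combination, 94.1 and 108 CPM with dexamethasone, 98.0 and 106 CPM with estradiol and 134 and 138 CPM in DMSO. The combination pair was the lowest, but its differences from dexamethasone and estradiol did not pass (adjusted p = 0.0561 and 0.187). ADGRF1, an adhesion G protein-coupled receptor, fell by 1.08. NTNG1, ALPK2 and FLRT3 (-1.40, -1.23 and -1.20) lost their calls without combination replicate 1 (adjusted p 0.0752, 0.0735 and 0.0802). LMCD1 (-1.17) lost it without either combination library or DMSO replicate 2 (up to 0.174), and C15orf62 (-1.12) without either combination library or DMSO replicate 1 (up to 0.144). Of the most abundant genes that fell, BASP1 (-0.60) and PIK3R3 (-0.61) lost their calls without either combination library (up to 0.105 and 0.106), and PLXNB2 (-0.52) without these or DMSO replicate 2 (up to 0.233). Of the most abundant that rose, NCOA4, a carrier of ferritin to the lysosome, stood at 482 and 490.3 CPM with the combination, against 276 and 269.6 CPM in DMSO (0.83 ± 0.10), and QSOX1, a sulfhydryl oxidase, at 522 and 504 CPM with the combination, against 289 and 323 CPM in DMSO (0.75 ± 0.10). NAP1L4, a nucleosome assembly protein (0.59), lost its call without either combination library or DMSO replicate 2 (up to 0.187), and the septin gene SEPT9 (0.42) without any combination, estradiol or DMSO library (up to 0.287).

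Lists for core cell functions held 0 called genes, and the 2.19% called of all genes comes to less than 1 gene in the longest of them, of 39 genes. By edgeR, DESeq2 and limma-voom 0 were called of 30 genes of G2 and mitosis, 29 of cholesterol and fatty acid synthesis, 28 of the respiratory chain, 25 of ribosome biogenesis, 39 ribosomal proteins, 21 interferon and antigen genes, 11 replication histones and 23 housekeeping genes. The numbers at an unadjusted p under 0.05 were 0, 2, 0, 1, 0, 3, 0 and 2 in the same order. Leaving out 1 library at a time gave up to 2 called ribosomal proteins and none in the other lists. Each of 3 further lists had 1 member called that is described with other groups, namely SLC30A1 of 8 metallothionein and zinc genes, BAG3 of 19 heat shock genes and CEBPB of 26 genes of the unfolded protein response. Medians of the 8 lists without a call lay between -0.07 and 0.08 on the log2 scale. In the list of endometrial receptivity and decidual genes 1 of 28 rose, LPAR3, and 2 fell, ARID5B and ITGB3 (10.7% called, median 0.10). ARID5B stood at 21.0 and 24.3 CPM with the combination, against 36.5 and 37.1 CPM in DMSO (adjusted p = 0.00479), and lost its call without combination replicate 1 (adjusted p = 0.11). Immediate early genes were called higher for EGR3, FOSL2 and CSRNP1 and lower for JUNB, of 24 (16.7% called, median -0.01). FOSL2 rose by 0.99 ± 0.16. EGR3 (1.25) lost its call without any combination, estradiol or DMSO library (up to 0.29), CSRNP1 (0.76) without any combination or dexamethasone library or DMSO replicate 1 (up to 0.202), and JUNB (-0.66) without each library but DMSO replicate 1 (up to 0.344).

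On a list of phosphatases, purine enzymes and related genes 5 of 24 tested members were called, all higher (20.8%, against 1.48% of all tested genes). The list was drawn up with earlier results of these data known, so this share is no test. Of the 5 genes, 3 are neighbours on chromosome 2 that encode membrane-anchored alkaline phosphatases. The other 2 were PPP1R1B and GMPR (2.06 ± 0.22, adjusted p = 0.000613). ALPI, the intestinal form, stood at 9.81 and 8.22 CPM with the combination, 1.54 and 0.505 CPM with dexamethasone, 9.52 and 11.4 CPM with estradiol and 0.735 and 0.243 CPM in DMSO (4.21 ± 0.42 over DMSO, adjusted p = 0.00042). ALPP, the placental form, stood at 15.8 and 15.7 CPM with the combination, 5.63 and 0.954 CPM with dexamethasone, 10.9 and 12.01 CPM with estradiol and 1.73 and 0.875 CPM in DMSO (3.60 ± 0.53, adjusted p = 0.00344). ALPPL2, the placental-like form, stood at 47.7 and 43.8 CPM with the combination, 23.4 and 7.58 CPM with dexamethasone, 43.5 and 47.4 CPM with estradiol and 9.499 and 7.44 CPM in DMSO (2.43 ± 0.36, adjusted p = 0.00372). At all 3 genes the combination libraries lay above every dexamethasone and DMSO library. Their transcripts share 1636 to 2500 bases at 88.8% to 90.3% identity, so counts may be partly exchanged between them. Called genes outside this family lay on both sides of it. In the order of tested genes the stretch ran NPPC, DIS3L2, ALPP, ALPPL2, ALPI, ECEL1, PRSS56 and CHRND, and 6 of these 8 were called higher. NPPC stood at 10.9 and 9.29 CPM with the combination, 1.78 and 0.505 CPM with dexamethasone, 9.91 and 10.47 CPM with estradiol and 0.682 and 0.535 CPM in DMSO (4.05 ± 0.37, adjusted p = 0.000249). PRSS56, a serine protease, stood at 1.46 and 0.898 CPM with the combination, against 0.0525 and 0.0972 CPM in DMSO (3.86 ± 0.57). CHRND, a subunit of the acetylcholine receptor, stood at 1.42 and 1.21 CPM with the combination, against 0.157 and 0.146 CPM in DMSO (3.07 ± 0.53), and lost its call without combination replicate 1 or either DMSO library (adjusted p up to 0.0745). DIS3L2, an exoribonuclease (0.25 ± 0.10, adjusted p = 0.367), and ECEL1 (0.56 ± 0.19, adjusted p = 0.247) were not called, nor were the 3 tested genes on each side of the stretch.

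The promoters of the 3 phosphatase genes are shown because the genes moved together. Each line gives the 250 bases before the start of the gene in RefSeq on GRCh38.p14, plus strand, 5′ to 3′, at chr2:232378501-232378750 for ALPP, chr2:232406594-232406843 for ALPPL2 (RefSeq ALPG) and chr2:232455903-232456152 for ALPI. Capitals mark AGGTCA, the half-site of estrogen response elements.
ALPP: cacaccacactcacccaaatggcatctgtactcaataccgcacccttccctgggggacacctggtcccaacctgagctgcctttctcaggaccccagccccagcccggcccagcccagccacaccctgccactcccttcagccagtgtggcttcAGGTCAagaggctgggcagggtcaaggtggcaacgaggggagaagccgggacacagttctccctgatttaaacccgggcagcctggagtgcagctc
ALPPL2: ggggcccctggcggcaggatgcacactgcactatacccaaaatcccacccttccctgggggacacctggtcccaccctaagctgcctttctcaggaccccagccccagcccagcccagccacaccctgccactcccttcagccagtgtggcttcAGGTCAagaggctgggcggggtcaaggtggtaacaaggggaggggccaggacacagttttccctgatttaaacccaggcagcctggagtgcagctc
ALPI: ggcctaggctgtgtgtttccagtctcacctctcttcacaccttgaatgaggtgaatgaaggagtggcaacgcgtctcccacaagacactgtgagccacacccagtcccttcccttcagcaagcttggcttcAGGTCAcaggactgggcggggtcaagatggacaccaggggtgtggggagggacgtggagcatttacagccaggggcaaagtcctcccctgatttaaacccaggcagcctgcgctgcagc
The match spans bases -96 to -91 in ALPP and ALPPL2 and -119 to -114 in ALPI, counted from the start. The windows of ALPP and ALPPL2 are 84.4% identical, and that of ALPI is 56.6% and 57.9% identical to them. Over all genes the half-site, on either strand, was found in 11.7% of 248 windows of 157 genes that were higher, 9.63% of 135 windows of 82 genes that were lower and 9.07% of 16420 windows of all tested genes with an entry. The full palindrome GGTCANNNTGACC was found in 1 of the 248 windows, that of PRR16 (log2 fold change 3.02 ± 0.67), in 0 of the 135 and in 4 of the 16420. PRR16 lost its call without any combination, dexamethasone or DMSO library (adjusted p up to 0.205). The glucocorticoid palindrome GAACANNNTGTTC was found in 0 windows of genes that were higher, 0 of those that were lower and 1 of all. A GGTCANNNTGACC preceded by A also counts as AGGTCA. Other motifs, on either strand, were TGACGTCA in 0.403% of windows of genes that were higher, 2.22% of those that were lower and 2.41% of all, CACGTG in 10.1%, 5.19% and 8.07%, and TGANTCA in 6.45%, 7.41% and 4.37%. A match is a description of letters in a short window and says nothing on binding.

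A second stretch of neighbours lay on chromosome 17. From SLC16A3 to NARF 5 of 8 tested genes were called higher, namely SLC16A3, SECTM1, HEXDC, C17orf62 and NARF, while CSNK1D, TEX19 and OGFOD3 were not. NARF, a nuclear protein that binds prelamin A, stood at 95.4 and 91.4 CPM with the combination, 54.0 and 47.9 CPM with dexamethasone, 98.8 and 108 CPM with estradiol and 46.5 and 48.9 CPM in DMSO (0.97 ± 0.10, adjusted p = 0.000536). SLC16A3 stood at 174 and 156 CPM with the combination, 109 and 88.0 CPM with dexamethasone, 181 and 194 CPM with estradiol and 73.6 and 82.2 CPM in DMSO (1.08 ± 0.12, adjusted p = 0.000811). HEXDC, a hexosaminidase (1.04 ± 0.14), C17orf62 (0.74 ± 0.14) and SECTM1 (2.33 ± 0.48) were the others, with HEXDC and C17orf62 overlapping in the annotation. C17orf62 lost its call without either combination library or DMSO replicate 1 (adjusted p up to 0.17), and SECTM1 without any combination, estradiol or DMSO library (up to 0.192). Both stretches were chosen after their values were seen. Of 307 called genes with a place in the RefSeq order, 42 (13.7%) had an adjacent tested gene that was also called, against 601 of all 14129 ordered genes (4.25%), and 40 of the 42 moved in the same direction as that neighbour. Of 13802 windows of 15 consecutive tested genes on a chromosome, 8 held 6 called genes, the highest number, and all 8 lie over the stretch on chromosome 2. Together they formed 20 runs of neighbours, 19 of them in 1 direction, and 2 of the 22 adjacent pairs overlapped in the annotation. IGFBP4 with TNS4, a focal adhesion protein (2.90 ± 0.19), and IQSEC3 with SLC6A12 were other such neighbours.

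**Figure D5:**
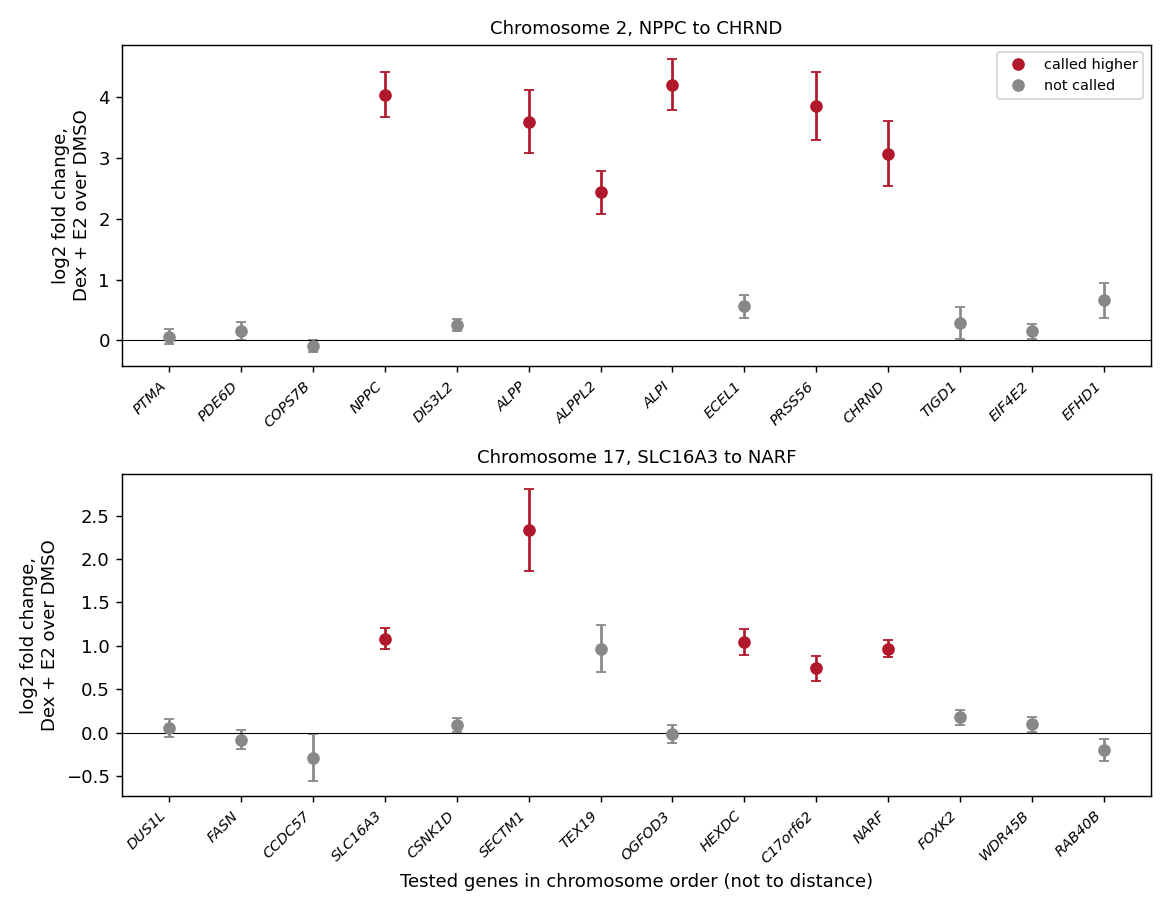
Log2 fold change of the combination over DMSO with the standard error of the fit for tested genes in chromosome order, not to distance, around NPPC to CHRND on chromosome 2 and SLC16A3 to NARF on chromosome 17. Red points were called higher and grey points were not called, and none of the 3 genes on each side of either stretch was called.

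Of the genes with few counts, 28 of the 311 had a mean level of at most 1 log2 CPM. TUBA3E, a testis-type alpha-tubulin gene, had 59 and 50 counts in the combination libraries and 0 in both DMSO libraries. Taking 3 counts per DMSO library as the floor, it was at least 16-fold higher with the combination. Its transcript shares 1540 bases at 98.2% identity with TUBA3D, which also rose (1.95 and 1.26 CPM with the combination, against 0.210 and 0.146 CPM in DMSO, adjusted p = 0.00802), so the split between them is uncertain. TUBA3D lost its call without combination replicate 1 or DMSO replicate 2 (adjusted p up to 0.0828). IL17REL had 15 and 14 counts with the combination and 0 in both DMSO libraries, at least 4.27-fold higher, and lost its call without any combination, estradiol or DMSO library (adjusted p up to 0.138).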

How the data were processed

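The labels describe stranded mRNA libraries of Ishikawa cells. The deposited table holds raw counts of reads per gene and library, made by the authors on hg19. The submitters' processing notes name HISAT2 2.0.4, Subread featureCounts 1.5.1 and DESeq2 1.14.1 and give these tools no order. Neither the gene models nor whether counting used strand is given in the sources used here, and overlapping genes on opposite strands may therefore share reads. The members of the comparison, the gene lists and the tests were chosen with earlier results of these data known.

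Genes were filtered by edgeR's filterByExpr with the groups, scaled by TMM and tested with edgeR 4.0.16 (R 4.3.3) by the quasi-likelihood test. All 8 libraries entered the fit, which left 4 residual degrees of freedom, and the combination was contrasted with DMSO and with each single hormone. P-values were adjusted by Benjamini-Hochberg over the 14201 tested genes with a threshold of 0.05. A log2 fold change is the combination over DMSO unless another group is named, and its standard error is its size divided by the square root of the F statistic. Genes were named by rank of fold change, p and level among called genes with a mean level above 1 log2 CPM, together with called members of each list. SLC43A2, KCNE3, PDZK1, RAPGEFL1, SIAH2, PRR16, TUBA3D, TUBA3E, IL17REL and the genes of the neighbouring stretches were chosen after their values were seen. Alternatives used DESeq2 1.42.0, limma-voom (limma 3.58.1), other scalings and filters, only the 4 libraries compared, and each library left out. The fits of the combination against a single hormone without each library, and a replicate block over the 7 numbered libraries, were added after seeing the data. On simulated counts for 13885 genes, the test of the combination against DMSO recovered 58% of the changes that were 1.5-fold. It recovered 94% of those of 2-fold and 99% of those of 4-fold, with 9 false calls among 184. The simulated counts were drawn independently with the spread estimated in the fit and no shift between replicates. These shares therefore hold for that model only. Gene order, promoters and start sites came from RefSeq, and transcripts were compared by blastn 2.17.0. No hg19 genome was used here, and 1 marker gene is not reported here.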

Additional observations from a re-analysis of the deposited data

How the results depend on the processing

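The unnumbered combination library has no number to pair by, so a replicate block, chosen after seeing the data, was fitted on the 7 numbered libraries only, with 2 residual degrees of freedom and 1 combination library. It called 302 genes, 202 higher and 100 lower, against 194 in the same libraries without the block, and 28 of 163 named genes lost their call. Over 14201 genes the differences between replicates 1 and 2 correlated at 0.0493 between dexamethasone and estradiol. They correlated at 0.243 between dexamethasone and DMSO and at 0.153 between estradiol and DMSO. Whether libraries with the same number share a batch was not settled, and the main fit has no term for it. The direction of all 311 changes was kept under every alternative that tested the gene. Against 311 genes in all, 210 higher and 101 lower, DESeq2 called 372, limma-voom 305, edgeR with RLE size factors 308, without scaling beyond library size 301, without RNA45S5 307, with a mean of at least 1 CPM 287 and in only the 4 libraries compared 272. Without a filter on low counts 456 were called, 161 of them lower. Leaving out 1 library at a time gave between 157 and 325 genes in all, between 133 and 223 higher and between 24 and 102 lower, the lowest values coming without combination replicate 1. Without the unnumbered combination library 194 were called, 47 of them lower. Of 163 named genes, markers included, 51 lost their call without combination replicate 1, 42 without the unnumbered combination library and 38 without DMSO replicate 2, and 3 lost it by DESeq2 and 3 by limma-voom. In the fit of only the 4 libraries compared, 17 of the named genes lost their call. The cause was not tested. A change of sign was seen only at uncalled genes. With the replicate block these were CD68 (0.31), EGFL7 (0.24) and RPS27 (0.203). The log2 fold change became positive for CD68 (0.0897) and EGFL7 (0.08) without the unnumbered combination library, for EGFL7 (0.21) and NR3C1 (0.012) without DMSO replicate 2, and for NR3C1 (0.000431) without combination replicate 1. Over all fits without 1 library, CD68 ranged from -0.659 to 0.0897, EGFL7 from -0.205 to 0.21 and NR3C1 from -0.0558 to 0.012. In the simulated counts, with changes only in genes above 2 CPM in DMSO, 58% of 1.5-fold changes were called, against 94% of 2-fold changes.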
